A study of Homo sapiens with 33 samples.

Results

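The T-box transcription factors TBX1, TBX2, TBX3, TBX4, TBX5, TBX6, TBX15, TBX18, TBX20 and EOMES were followed through gonadal differentiation of human embryonic stem cells with and without activation of FOXL2, a forkhead transcription factor of the ovary. These 10 genes were taken by name from a table of 58735 genes. The names were chosen with earlier results of these data known, so their call counts are not those of an unbiased set. All 10 were in the table, and 7 had a read in every library. The cells were of the H9 line, an established human embryonic stem cell line, as the single clone 24 of H9-DDdCas9VP192-FOXL2. This clone carries a deactivated Cas9 fused to the VP192 activator, which is expressed under doxycycline (DOX) and stabilised by trimethoprim (TMP), with guides at FOXL2. All libraries came from this clone in a 14-day protocol that started with activin A, CHIR-99021 and dorsomorphin. BMP7 followed, then dorsomorphin again, both with CHIR-99021, and then intermediate mesoderm (IM) medium. The 33 libraries of poly-A RNA made up 11 groups of 3, namely a common start on day 4, and then non-induced (CTRL) and induced (IND) cells every other day from day 6 to day 14. IND cells received DOX and TMP in the IM medium from day 4, and CTRL cells did not, so the activation of FOXL2 and the compounds themselves cannot be told apart. The 3 libraries of a group were technical replicates, and p-values therefore measure only the spread between these samples.

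T-box proteins share a DNA-binding domain, the T-box, and act as activators, as repressors, or as both. They are known for laying out the mesoderm and the organs made from it. EOMES and TBX6 act early, in the primitive streak and in the paraxial mesoderm. TBX5, TBX20 and TBX18 are used in the heart and in the mesothelial layers around it, TBX5 and TBX4 start the forelimb and the hindlimb, and TBX18 is also needed in the mesenchyme of the urogenital tract. TBX2 and TBX3 are close relatives that mostly repress transcription. TBX1 is known from the pharynx and the cardiac outflow tract, and TBX15 from the skeleton, skin and muscle.

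Library depth ran from 23940837 to 51912815 counts, with a median of 41420455, so that the 3 counts used as the limit of detection equalled 0.0564 to 0.129 CPM, the count scaled to the normalised size of its library. The activation was present in the libraries labelled IND, with FOXL2 at 147 to 577 CPM in the 15 IND libraries and at 0.0199 to 0.319 CPM in the 15 CTRL libraries. Replicate 2 of the day 10 IND group stood apart, with 23940837 counts, 19254 genes with a read against 28799 and 28848 in its partners, and a mean correlation of 0.920 with them. Comparisons of IND with CTRL on day 10 are given with and without it for members whose call it changed, and for some others. The label of embryonic stem cells named the line. Among 6 markers of pluripotent cells, POU5F1 was at 69.4 to 75.7 CPM on day 4 and at 0.0812 to 0.134 CPM in CTRL on day 14. NANOG stayed within the limit of detection in the day 4 libraries. The 6 markers summed to 1981 to 2172 CPM on day 4 and to 172 to 236 CPM in CTRL on day 14. LIN28A, DPPA4 and SOX2 had higher mean levels over all libraries than POU5F1.

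The genes lie on 8 chromosomes of GRCh38, and among them are a pair of neighbours on chromosome 17 and another on chromosome 12. TBX2 lies at chr17:61399896-61409466 and TBX4 at chr17:61452404-61485110, both on the plus strand and 42937 bp apart. TBX5 lies at chr12:114353931-114408442 and TBX3 at chr12:114670254-114684164, both on the minus strand and 261811 bp apart. TBX18 lies alone at chr6:84687351-84764519 on the minus strand. The libraries kept no strand, and 3 members share exonic bases with a gene on the other strand. TBX5-AS1 shares 252 bp with TBX5 (5.78% of its exonic length), GNB1L shares 280 bp with TBX1 (7.82%) and AC005746.2 shares 28 bp with TBX2 (0.464%), so reads in these stretches could not be assigned.

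Start-site windows are printed for TBX18, TBX5 and TBX4, the genes that differed between IND and CTRL on 4 or more of the 5 days. RefSeq windows (GRCh38.p14) of 250 bases before to 50 bases from the transcript start on were at hand for 7 members, and TBX2, TBX3 and TBX15 had none. The TBX4 window lies inside TBX4 as the deposited table places the gene, downstream of its first base. Letters that match a searched motif are in capitals, and each sequence runs 5′ to 3′ on the strand of its gene.
TBX18, chr6:84764549-84764848, minus strand: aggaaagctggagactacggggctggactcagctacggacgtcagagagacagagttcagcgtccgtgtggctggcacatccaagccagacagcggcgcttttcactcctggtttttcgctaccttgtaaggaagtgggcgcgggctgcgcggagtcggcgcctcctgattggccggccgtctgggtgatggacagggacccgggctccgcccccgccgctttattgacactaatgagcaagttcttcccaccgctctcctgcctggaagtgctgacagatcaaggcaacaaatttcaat
TBX5, upstream start, chr12:114408393-114408692, minus strand: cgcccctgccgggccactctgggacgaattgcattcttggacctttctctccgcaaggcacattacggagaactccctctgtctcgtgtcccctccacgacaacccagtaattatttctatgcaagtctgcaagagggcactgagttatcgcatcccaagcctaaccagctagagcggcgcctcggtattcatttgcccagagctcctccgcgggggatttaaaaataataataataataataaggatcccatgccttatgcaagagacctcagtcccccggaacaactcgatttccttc
TBX5, downstream start, chr12:114407963-114408262, minus strand: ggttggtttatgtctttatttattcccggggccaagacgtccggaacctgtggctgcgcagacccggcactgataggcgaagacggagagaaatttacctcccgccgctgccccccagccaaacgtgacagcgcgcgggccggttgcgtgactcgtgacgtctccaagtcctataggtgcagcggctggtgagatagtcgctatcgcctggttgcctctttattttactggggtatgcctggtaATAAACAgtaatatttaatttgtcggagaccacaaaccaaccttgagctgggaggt
TBX4, chr17:61456238-61456537, plus strand: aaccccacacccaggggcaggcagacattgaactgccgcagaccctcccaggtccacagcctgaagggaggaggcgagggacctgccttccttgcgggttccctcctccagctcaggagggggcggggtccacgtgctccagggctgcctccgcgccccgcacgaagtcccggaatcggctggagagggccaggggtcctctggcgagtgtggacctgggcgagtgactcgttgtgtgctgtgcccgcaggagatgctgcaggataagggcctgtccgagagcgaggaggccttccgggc

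The TBX18 window held 59.3% G and C and 21 CpG dinucleotides, against medians of 58.7% and 14 over all 35116 windows. The TBX5 windows held 54.3% with 21 CpG and 51.3% with 15 CpG, and the TBX4 window 68.3% with 18 CpG. Motifs were searched on both strands in the 8 windows of the members. The forkhead letters ATAAACA were found in 1 window, at the downstream start of TBX5, beginning 6 bases before the start, and occur in 4.24% of all windows. The other forkhead form GTAAACA, present in 3.42% of all windows, the letters GTCAAGG of a FOXL2 response element, in 3.06%, the T-box motif AGGTGTGA, in 0.98%, and the GATA motif AGATAA, in 10.3%, were in none of the 8. The letters TATAAA, in 11.5% of all windows, were in the EOMES window alone. A match says only that these letters are in the window, and the form ATAAACA was added after the sequences had been seen.

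At day 4, before induction, TBX3 had the highest level of the 10 genes. These were bulk samples, in which fewer cells of a type and less RNA per cell cannot be told apart. Levels of different genes are compared as FPKM, which divides by gene length. TBX3 stood at 8.78 ± 1.14 FPKM (SD, n = 3) on day 4 and made up 69.0% of the summed FPKM of the 10 genes. Next on that day were TBX6 with 2.29 ± 1.19 FPKM, TBX5 with 0.654 ± 0.386 FPKM and TBX2 with 0.545 ± 0.268 FPKM. TBX4, TBX18 and TBX20 were at 0.0383, 0.0182 and 0.0824 FPKM, from 0 to 10 counts in a library.

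In CTRL the summed FPKM of the family rose from 12.7 ± 0.239 on day 4 to 29.7 ± 3.01 on day 6, 40.9 ± 1.29 on day 8 and 49.6 ± 4.39 on day 14. The make-up changed with it. TBX18 took 6.48% of the sum on day 6, 19.6% on day 8, 34.0% on day 10 and 30.9% on day 14. TBX3 fell to a share of 31.1% on day 6 and 23.2% on day 14, although its own level was 11.4 ± 0.495 FPKM by then. On day 14 the order by FPKM was TBX18 (15.5), TBX3 (11.4), TBX5 (9.72), TBX2 (9.49), TBX20 (1.76), TBX4 (0.761) and TBX6 (0.711).

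**Figure D1:**
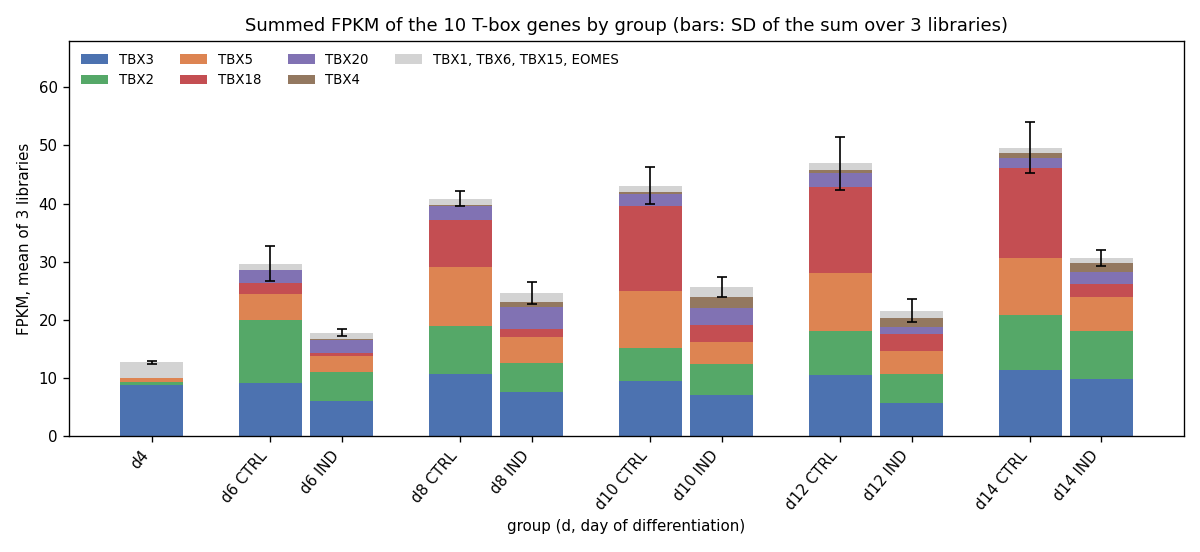
Summed FPKM (y axis) of the 10 T-box genes in each of the 11 groups (x axis), stacked by the mean of each gene over 3 libraries, with the SD of the sum as error bar. The sum rises from 12.7 on day 4 to 49.6 in CTRL and 30.6 in IND on day 14, and the TBX18 block is taller in CTRL than in IND on every day.

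Against day 4, most members moved in CTRL. Of those tested, 5 of 8 passed an adjusted p of 0.05 on day 6, 5 of 9 on day 8, 6 of 9 on day 10, 6 of 9 on day 12 and 7 of 8 on day 14. Over all genes tested 21.6%, 37.1%, 45.1%, 48.1% and 47.6% passed on these days. The members called were 4, 4, 5, 5 and 6 higher, where 11.0%, 18.1%, 23.1%, 24.4% and 24.6% of all genes were higher, and 1 lower on each day, where 10.6%, 18.9%, 22.0%, 23.8% and 22.9% of all genes were lower. TBX2, TBX5, TBX18 and TBX20 were higher than on day 4 on 5 of 5 days, TBX4 was higher on days 10, 12 and 14, and TBX3 was higher on day 14 only. TBX6 was lower on 5 of 5 days. TBX1 (not tested on day 14) and TBX15 passed on no day, and EOMES was too low to be tested on any. The TBX3 call was lost when any library of these groups other than day 4 replicate 3 was left out, with adjusted p of 0.0529 to 0.139. All of these comparisons share the day 4 libraries.

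TBX18, a marker of epicardium and of urogenital mesenchyme, had the largest rise among the members. Its log2 fold change over day 4 was 6.75 in CTRL on day 6 (SE 0.49, adjusted p = 5.63e-06) and 9.73 on day 14 (SE 0.48, adjusted p = 1.24e-06). The day 4 libraries held 10, 3 and 0 counts of TBX18, so the size of these values rests on few reads, while CTRL libraries held 563 to 7299 counts. TBX20, a cardiac repressor and activator, rose by 4.64 by day 6 and was between 4.33 and 4.85 above day 4 throughout. TBX2 rose by 4.30 by day 6, by 3.39 on day 10 and by 4.09 on day 14, and TBX5 by 2.81 on day 6 and by 3.87 to 3.95 after it.

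TBX6, which drives the paraxial mesoderm fate, was at 10.5, 8.21 and 3.10 CPM on day 4 and at 1.37 to 3.16 CPM in the 15 CTRL libraries. Its log2 fold change against day 4 was -1.82 on day 6 and -1.71 on day 14, with adjusted p of 0.00977 and 0.00709. On day 12 the lowest day 4 library overlapped the CTRL libraries. That call (adjusted p = 0.0234) was lost without day 4 replicate 1 or any single CTRL library, with adjusted p of 0.0608 to 0.102. The call of day 6 was lost without day 4 replicate 1 (0.0518) or CTRL replicate 3 (0.0536). With library sizes set by PPIG, the reference gene of the study's RT-qPCR, the call of day 12 was also lost (0.136). With limma on log2(FPKM + 1) those of days 6 and 12 were lost (0.0505 and 0.0712). EOMES, a regulator of mesendoderm, had at most 17 counts in a library, and 22 of 33 libraries were within the limit of 3 counts.

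In IND, members were likewise compared with day 4. The count was 6 of 9 on day 6, 7 of 9 on day 8, 5 of 9 on day 10, 7 of 9 on day 12 and 6 of 8 on day 14, where 26.5%, 35.8%, 21.6%, 37.1% and 50.6% of all genes tested passed. Of these members 4, 6, 5, 5 and 5 were higher, against 13.1%, 18.7%, 11.9%, 20.5% and 25.8% of all genes, and 2, 1, 0, 2 and 1 were lower, against 13.5%, 17.0%, 9.79%, 16.6% and 24.8%. TBX2, TBX5, TBX18 and TBX20 were higher on 5 of 5 days, and TBX4 on 4, from day 8 on. TBX18 was 4.84 to 7.37 above day 4 on the log2 scale, TBX2 3.14 to 3.86, TBX5 2.02 to 3.13 and TBX20 3.81 to 5.46. On day 10 the count was 5 also without IND replicate 2. TBX6 was lower on 4 days, and on day 10 it stood at -1.42 with an adjusted p of 0.0716. The TBX6 calls of days 6, 8 and 12 were each lost without day 4 replicate 1, with adjusted p of 0.161, 0.0916 and 0.0986, and without 3, 3 and 2 other single libraries. They were also lost with PPIG library sizes (0.0769, 0.0730 and 0.303) and with limma (0.0850, 0.0672 and 0.0588). TBX5 on day 10 lost its call without day 4 replicate 1 (adjusted p = 0.0613) and with the replicate number as a block (0.0552). TBX1 was higher on day 8 alone, by 2.18 (SE 0.62, adjusted p = 0.0225), and not without IND replicate 1 (0.0829) or 2 (0.0654).

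TBX3 passed as lower than on day 4 on 2 of 5 days in IND, and its direction depends on the scaling. On day 14 its value was 0.15 and did not pass (adjusted p = 0.307). It was lower than on day 4 on day 6 by -0.52 (adjusted p = 0.0112) and on day 12 by -0.60 (adjusted p = 0.0258), but with library sizes set by PPIG, the reference gene of the study's RT-qPCR, the day 12 value was 0.13 (adjusted p = 0.609). That scaling moved the median of all genes by 0.79 on that day. On day 6 it also ended the TBX3 call, with a value of -0.15 (adjusted p = 0.452). Leaving out IND replicate 1 or 2 ended the call of day 6 (adjusted p = 0.0506 and 0.0584), and leaving out day 4 replicate 1 or 3 or IND replicate 2 that of day 12 (0.0529, 0.0862 and 0.0804).

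IND and CTRL of the same day were compared next, to ask what changed with FOXL2 activation. TBX18, TBX5, TBX3 and TBX2 were lower in IND and TBX4 was higher, each on the days given below. Of the members tested, 4 of 9 passed on day 6, 4 of 9 on day 8, 2 of 9 on day 10, 4 of 9 on day 12 and 3 of 8 on day 14. Of all genes tested, 3.66%, 14.2%, 2.03%, 5.42% and 8.43% passed on these days. Lower in IND were 4, 3, 1, 3 and 2 members, where 2.37%, 6.67%, 1.18%, 3.04% and 5.22% of all genes were lower. Higher in IND were 0, 1, 1, 1 and 1 members, where 1.29%, 7.5%, 0.856%, 2.38% and 3.21% of all genes were higher. Among these 17 calls were 13 lower and 4 higher values, and the 4 higher ones were all of TBX4. The median log2 fold change of all genes lay between -0.01 and 0.02 on each day. With library sizes set by PPIG, which moved this median by -0.09 to 0.35, 10 calls were made. Over all genes 99, 3244, 58, 272 and 1667 passed on the 5 days with these sizes, against 700, 2754, 404, 1080 and 1606.

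**Figure D2:**
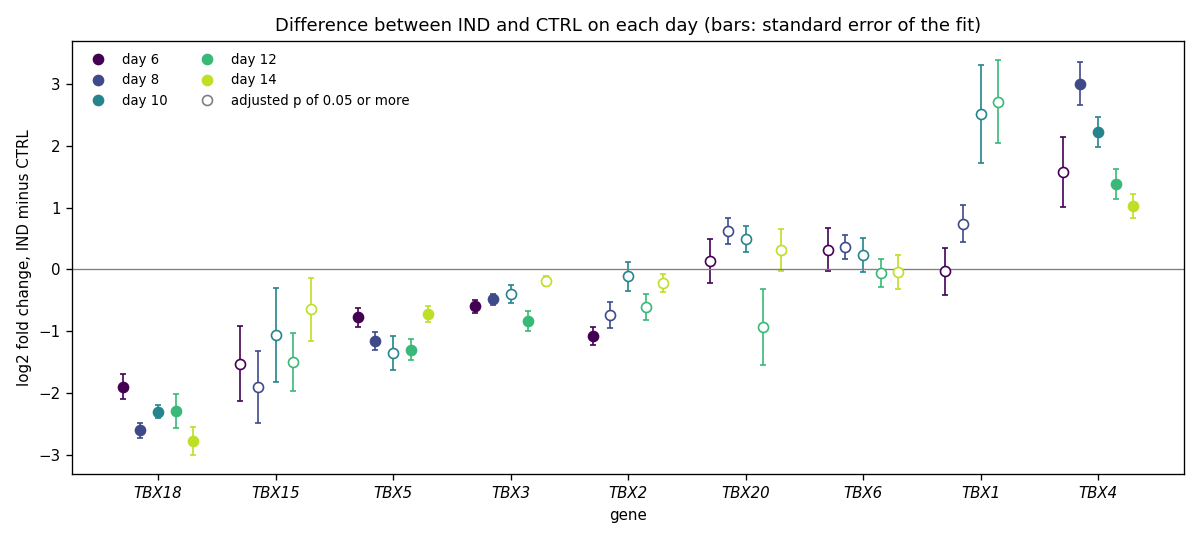
Log2 fold change of IND minus CTRL (y axis) for the 9 members that could be tested (x axis) on days 6 to 14 (colours), with the standard error of the edgeR fit. Filled points passed an adjusted p of 0.05. TBX18 is between -1.90 and -2.78 on each day, and TBX4 between 1.03 and 3.01.

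TBX18 was lower in IND on 5 of 5 days. In CTRL, TBX18 stood at 17.0, 17.1 and 15.6 CPM on day 6, 58.2, 74.9 and 72.3 on day 8, 129.8, 120.1 and 120.1 on day 10, 81.0, 139 and 157 on day 12, and 133, 93.0 and 164 on day 14. In IND, TBX18 stood at 5.92, 4.26 and 3.01 CPM on day 6, 9.60, 11.4 and 12.5 on day 8, 24.4, 25.7 and 24.6 on day 10, 17.8, 30.2 and 28.7 on day 12, and 16.2, 20.0 and 20.3 on day 14. Every CTRL library was above every IND library of its day, and the CTRL libraries of days 12 and 14 were the most spread. The gene was 3.73-fold lower on day 6 (log2 -1.90, SE 0.21, adjusted p = 4.68e-05) and 6.08-fold lower on day 8 (log2 -2.60, SE 0.12, adjusted p = 7.09e-07). It was 4.94-fold, 4.91-fold and 6.87-fold lower on days 10, 12 and 14, with adjusted p of 0.000973, 0.00366 and 0.000429. Without replicate 2 of the day 10 IND group, the log2 value of day 10 was -2.34 with an adjusted p of 6.57e-10. With PPIG sizes the call of day 10 was lost (log2 -1.91, adjusted p = 0.0649).

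Across the 11 groups TBX18 had the most neighbours without overlap in its order of levels among the members. Ranked by mean CPM, CTRL of days 14, 12 and 10 came on top with overlapping libraries (130.0, 126 and 123 CPM), followed without overlap by CTRL of day 8 (68.5) and then by IND of days 12 and 10 (25.6 and 24.9). IND of day 14 (18.8) overlapped CTRL of day 6 (16.6), and IND of days 8 and 6 (11.1 and 4.40) and day 4 (0.156) each stood apart. Of the 10 pairs of neighbours in this order, 6 did not overlap, against 4 for TBX4, 2 each for TBX2, TBX5 and TBX20, 1 for TBX1 and 0 for TBX3, TBX6, TBX15 and EOMES. Groups that are not neighbours were left out of this count. For TBX18, IND of day 12 (17.8 to 30.2 CPM) overlapped IND of day 14 (16.2 to 20.3 CPM). The same count over all genes is not given here.

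TBX5, the forelimb and atrial factor, was lower in IND on 4 of 5 days. In CTRL, TBX5 was at 17.5, 24.1 and 19.0 CPM on day 6, 42.5, 44.5 and 46.7 on day 8, 42.7, 46.9 and 37.8 on day 10, 44.6, 42.1 and 43.3 on day 12, and 39.5, 37.0 and 49.6 on day 14. In IND, TBX5 was at 10.7, 12.0 and 12.2 CPM on day 6, 16.5, 17.3 and 25.6 on day 8, 22.3, 10.4 and 16.9 on day 10, 20.4, 13.3 and 19.1 on day 12, and 22.5, 26.2 and 27.3 on day 14. CTRL held a plateau from day 8 on, and no IND library reached a CTRL library of its day. The log2 fold change was -0.78 on day 6, -1.16 on day 8, -1.30 on day 12 and -0.72 on day 14, with adjusted p of 0.00534, 0.00102, 0.00449 and 0.00252. The call of day 6 was lost with PPIG sizes (adjusted p = 0.125), in 1 fit over 33 libraries (0.0959) and with limma (0.0575), that of day 12 with PPIG sizes (0.125) and that of day 14 in 1 fit over 33 libraries (0.0952). On day 10 the value was -1.35 with an adjusted p of 0.0680, and without IND replicate 2 it was -1.12 with an adjusted p of 0.000119. The antisense gene TBX5-AS1 had 0.841 and 1.37 CPM in IND and CTRL on day 6 and 2.13 and 4.22 CPM on day 8, where it passed as lower (adjusted p = 0.0238).

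TBX4, the hindlimb counterpart of TBX5, was higher in IND on 4 of 5 days. In CTRL, TBX4 was at 0.0907, 0.160 and 0.360 CPM on day 6, 0.510, 0.409 and 0.588 on day 8, 1.63, 1.85 and 1.34 on day 10, 2.71, 1.91 and 2.10 on day 12, and 2.89, 2.91 and 3.25 on day 14. In IND, TBX4 was at 0.830, 0.518 and 0.521 CPM on day 6, 2.72, 3.19 and 6.12 on day 8, 8.22, 7.86 and 6.37 on day 10, 6.72, 4.28 and 6.61 on day 12, and 5.57, 6.45 and 6.39 on day 14. The IND libraries lay above all CTRL libraries of their day, also on day 6, and the CTRL libraries climbed while those of IND stayed level from day 10 on. The gene was 8.05-fold higher on day 8 (log2 3.01, SE 0.35, adjusted p = 0.000254), 4.68-fold on day 10 (adjusted p = 0.0110), 2.61-fold on day 12 (adjusted p = 0.0161) and 2.05-fold on day 14 (adjusted p = 0.00389). The call of day 10 was lost with PPIG sizes (adjusted p = 0.0598) and with the replicate block (0.0760). The call of day 12 was lost without CTRL replicate 2 or 3 (adjusted p = 0.0766 and 0.0803) and with PPIG sizes (0.0878), and that of day 14 in 1 fit over 33 libraries (0.105). On day 6 the log2 value was 1.58 (SE 0.57) with an adjusted p of 0.172, from 3 to 31 counts in a library. The call of day 10 was also lost in 5 of the 6 fits that left out a library of these groups, with adjusted p up to 0.122. Without IND replicate 2 its adjusted p was 5.65e-06.

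For the neighbours on chromosome 17, no day had a call for both genes in the main fits, and the difference between them was not tested. Without IND replicate 2 of day 10 both passed on that day. TBX2 was then at -0.39 (adjusted p = 0.0450) and TBX4 at 2.18 (adjusted p = 5.65e-06). TBX2 was lower in IND on day 6 by -1.08 (SE 0.15, adjusted p = 0.000873), and TBX4, 42937 bp away on the same strand, was at 1.58 in the same comparison. On day 8 TBX2 stood at -0.74 with an adjusted p of 0.0609 while TBX4 was higher by 3.01. The antisense gene TBX2-AS1, which spans TBX2 and shares no exonic base with it, was lower in IND on day 6 (8.13 against 12.9 CPM, adjusted p = 0.0399) and on day 8 (6.43 against 12.0 CPM, adjusted p = 0.00539).

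Within a library, the FPKM ratio of TBX5 to TBX4 had a median of 139 in CTRL and 21.1 in IND on day 6, 76.3 and 4.97 on day 8, 24.0 and 2.43 on day 10, 18.8 and 2.78 on day 12, and 12.5 and 3.72 on day 14. The ranges of CTRL and IND did not overlap on any of these days. This follows from the separation of both genes given above and is no further result. On day 10 IND replicate 2 had the lowest ratio, 1.22, and the others 2.43 and 2.49. The ratio of TBX18 to TBX5 was 0.423 in CTRL and 0.184 in IND on day 6, and 1.70 and 0.384 on day 14. On day 12 the ranges of that ratio overlapped, with a lowest CTRL value of 0.937 and a highest IND value of 1.17.

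**Figure D3:**
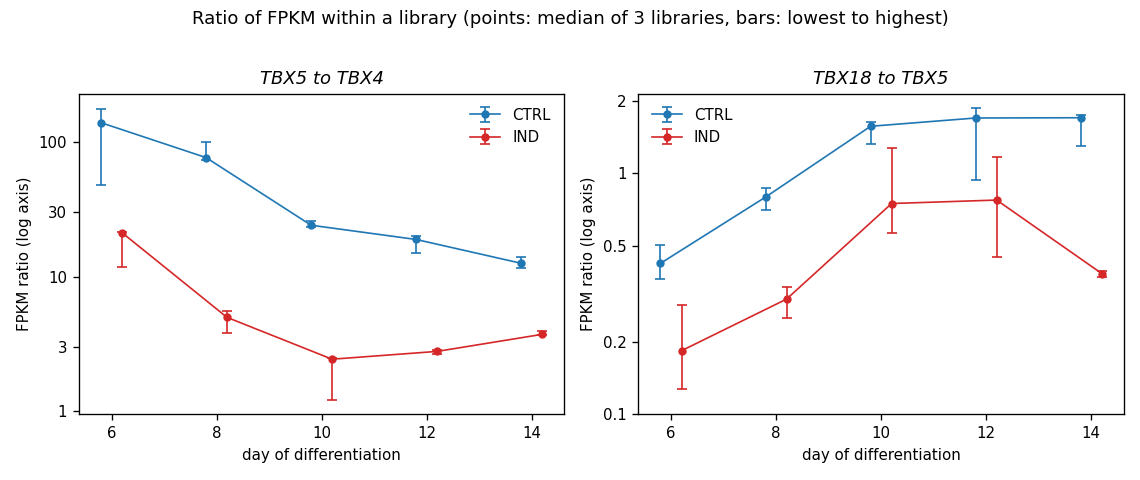
Ratio of FPKM within a library (y axis, log scale) of TBX5 to TBX4 (left) and TBX18 to TBX5 (right) by day of differentiation (x axis) in CTRL and IND. Points are medians of 3 libraries and bars run from the lowest to the highest. The TBX5 to TBX4 ratio falls from 139 to 12.5 in CTRL and lies between 2.43 and 21.1 in IND.

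TBX3, a repressor that is also active in pluripotent and in early mesodermal cells, was lower in IND on 3 of 5 days. In CTRL, TBX3 was at 55.7, 59.4 and 52.6 CPM on day 6, 70.5, 64.7 and 59.1 on day 8, 62.7, 58.5 and 47.9 on day 10, 69.2, 59.3 and 58.8 on day 12, and 70.1, 67.9 and 64.2 on day 14. In IND, TBX3 was at 34.8, 36.2 and 38.3 CPM on day 6, 48.2, 42.9 and 46.7 on day 8, 44.7, 38.2 and 45.0 on day 10, 28.5, 34.2 and 42.2 on day 12, and 61.1, 55.5 and 60.0 on day 14. The groups did not overlap on any day, and the gap was narrowest on days 10 and 14. The log2 fold change was -0.60 on day 6 (adjusted p = 0.00245), -0.49 on day 8 (adjusted p = 0.00332) and -0.84 on day 12 (adjusted p = 0.0203). On days 10 and 14 it was -0.40 and -0.19, with adjusted p of 0.259 and 0.201. Without IND replicate 2 the value of day 10 was -0.33 with an adjusted p of 0.0410. The call of day 12 was lost without any single CTRL library or without IND replicate 2, with adjusted p of 0.0654 to 0.0917. PPIG sizes ended the calls of days 6 and 12 (adjusted p = 0.226 and 0.103).

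TBX2, the paralogue of TBX3, passed on day 6 alone. In CTRL, TBX2 was at 71.9, 66.7 and 59.5 CPM on day 6, 51.4, 53.2 and 44.1 on day 8, 35.3, 36.7 and 31.3 on day 10, 42.8, 41.6 and 51.1 on day 12, and 59.4, 67.1 and 43.7 on day 14. In IND, TBX2 was at 38.2, 31.0 and 23.6 CPM on day 6, 19.8, 32.0 and 36.5 on day 8, 30.2, 42.4 and 22.6 on day 10, 39.4, 21.7 and 27.3 on day 12, and 49.1, 53.6 and 43.5 on day 14. The CTRL level was highest on day 6 and lowest on day 10, and IND was near one level up to day 12. The groups did not overlap on days 6, 8 and 12 and did on days 10 and 14. The call of day 6 was lost without CTRL replicate 1 (adjusted p = 0.0565) and with PPIG sizes (0.0510). After day 6 the log2 value was between -0.11 and -0.74, with adjusted p from 0.0609 to 0.820. The highest IND library on day 10 was replicate 2, and without it the value was -0.39 with an adjusted p of 0.0450.

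**Figure D4:**
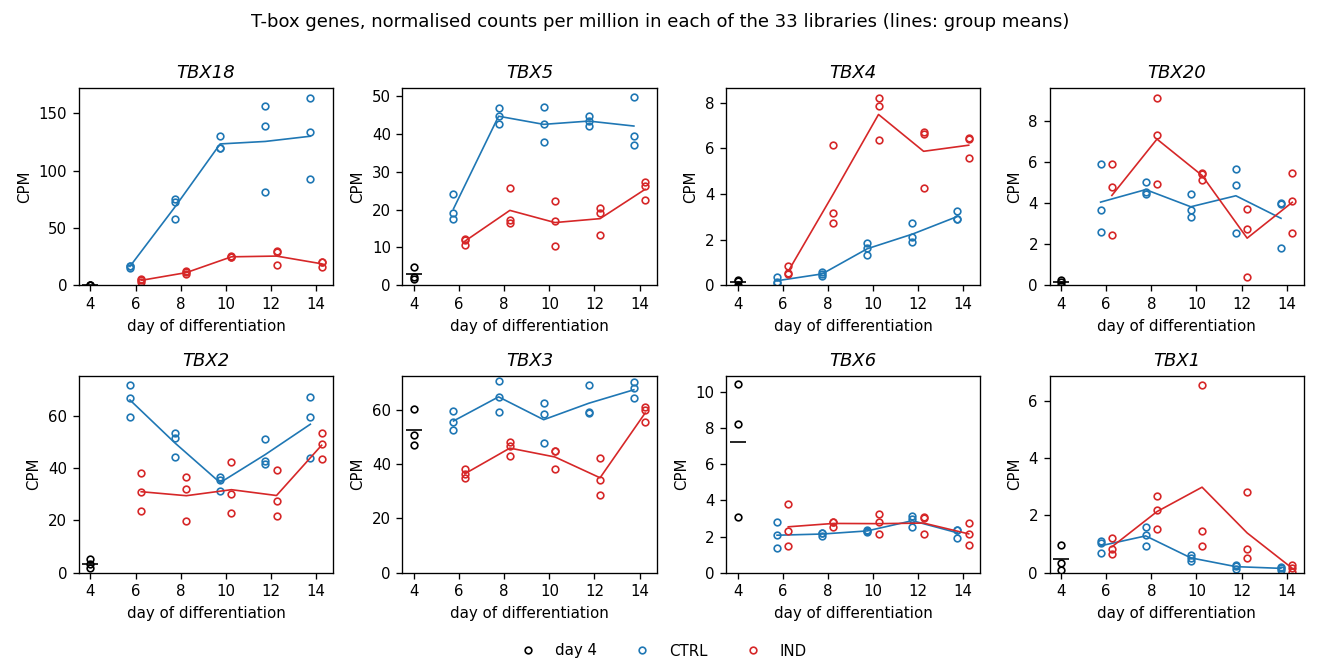
Normalised CPM (y axis, from 0) of 8 T-box genes in each of the 33 libraries by day of differentiation (x axis), as open circles for day 4, CTRL and IND, with lines through the group means. TBX18, TBX5 and TBX3 libraries of CTRL lie above those of IND on each day, and TBX4 libraries of IND lie above those of CTRL.

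TBX20, TBX6, TBX15 and TBX1 passed in none of the comparisons of IND with CTRL. TBX20 was at 1.83 to 5.93 CPM in CTRL and at 0.424 to 9.16 CPM in IND, with log2 values from -0.94 to 0.62 and adjusted p of at least 0.0819. TBX6 was at 1.37 to 3.16 CPM in CTRL and at 1.47 to 3.82 CPM in IND, with log2 values from -0.06 to 0.36. TBX15 had log2 values from -0.65 to -1.91 at 2 to 42 counts in a library, and its lowest adjusted p was 0.0514, on day 8. On that day the CTRL libraries held 18 to 30 counts and the IND libraries 2 to 10.

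TBX1 had uneven replicates in IND on days 10 and 12. On day 10 the IND libraries were at 0.948, 6.56 and 1.45 CPM, the highest being replicate 2, against 0.622, 0.411 and 0.519 CPM in CTRL. The log2 value was 2.52 (SE 0.80) with an adjusted p of 0.203, and without replicate 2 it was 1.20 with an adjusted p of 0.0300. On day 12 the IND libraries were at 0.826, 2.83 and 0.506 CPM and the CTRL libraries at 0.263, 0.132 and 0.236 CPM (log2 2.72, adjusted p = 0.0532).

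Leaving out replicate 2 of the day 10 IND group raised the number of members called on day 10 from 2 to 6 of 9, and the share of all genes called from 2.03% to 18.2%. The added members were TBX5, TBX3, TBX2 and TBX1. Leaving out any other library of day 10 left 1 call, leaving out CTRL replicate 2 or 3 of day 12 left 2 calls on that day, and leaving out IND replicate 3 of day 8 gave 7. The shares over all genes in these other fits are not given here.

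Whether the difference between IND and CTRL changed with the day was tested over the 30 libraries after day 4. TBX4 passed, with an F of 6.26 over 4 terms and an adjusted p of 0.0448, as 1 of 9 members tested, where 2.38% of all 22442 genes passed. Its difference was 3.01 on day 8 and 1.03 on day 14. Leaving out 1 library gave adjusted p from 0.0189 to 0.122, and the block on replicate number gave 0.0504. TBX3 and TBX1 had unadjusted p of 0.0116 and 0.00782, with adjusted p of 0.192 and 0.154. For TBX18 the adjusted p was 0.456 and for TBX5 0.435.

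Markers of other cells moved in the same comparisons. On day 8 the 7 coelomic epithelium and early gonad markers summed to 385 to 518 CPM in CTRL and to 175 to 211 CPM in IND, with GATA4, LHX9, UPK3B and WT1 lower and OSR1 higher among 6 tested. The 4 stroma markers summed to 6060 to 7001 CPM in CTRL and to 3277 to 4368 CPM in IND, and 4 of 4 were lower. Neural crest and glia markers summed to 263 to 445 CPM in CTRL and to 148 to 162 CPM in IND, with 4 of 5 lower, and the neuron markers to 102 to 150 and 64.0 to 73.4 CPM, with 4 of 8 lower. Cardiomyocyte markers summed to 286 to 387 CPM in CTRL and to 138 to 169 CPM in IND on day 6, and to 209 to 280 and 100.2 to 109.9 CPM on day 8, with MYL7 and TNNT2 lower of 5 on both days. On day 8 the endothelium markers went up, from 128 to 139 CPM in CTRL to 160 to 174 CPM in IND, with 4 of 6 higher. No marker of these lists was within 3 counts in all libraries of a day 8 group, and the part of such shifts in the T-box values was not tested.

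On day 14 the stroma sums overlapped (6336 to 8611 CPM in CTRL and 6215 to 6966 CPM in IND, 0 of 4 called). Some other lists did not overlap on that day. Neural crest and glia markers summed to 522 to 843 CPM in CTRL and to 281 to 356 CPM in IND, with 4 of 5 lower, and neuron markers to 401 to 694 and 297 to 363 CPM, with 6 of 8 lower. Smooth muscle markers summed to 255 to 469 and 206 to 221 CPM, with 1 of 4 lower, but had overlapped on day 8 (188 to 248 and 167 to 233 CPM). The coelomic list was at 460.4 to 581 CPM in CTRL and 348 to 394 CPM in IND. Cardiomyocyte markers summed to 117 to 223 CPM and to 105 to 122 CPM, which overlapped, with 0 of 4 called. The endothelium sums also overlapped, at 58.7 to 98.8 CPM in CTRL and 86.2 to 125 CPM in IND.

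The genes that work with T-box factors in the heart were partly lower in IND early on. Of 14 cardiac partners and targets, 13 were tested on day 6, with 6 lower (GATA5, HAND1, HAND2, HCN4, MYL7 and TNNT2) and a median log2 fold change of -0.70 against 0.00 over all genes. MYL7, an atrial myosin light chain, had 96.2 CPM in IND and 241 CPM in CTRL on day 6 (log2 -1.31, adjusted p = 0.000676). HAND2 had 53.8 and 88.6 CPM (log2 -0.70, adjusted p = 0.00140). On day 12 only HCN4 was called, as lower, among 14 tested.

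GATA4, which binds TBX5, was lower in IND on 5 of 5 days, from 143 against 364 CPM on day 8 (log2 -1.34, adjusted p = 0.000169) to 219 against 322 CPM on day 14 (log2 -0.55, adjusted p = 0.00399). Among the corepressors and partners, HDAC2 and KDM6B passed on no day. The corepressor TLE1 was lower on days 6 and 8.

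In the list of mesothelium and epicardium, which TBX18 marks, 11 genes were tested on each day. Lower were 3, 5, 3, 4 and 3 of them on days 6, 8, 10, 12 and 14, and higher were 2, 1, 0, 0 and 0. Without IND replicate 2 of day 10, 5 were lower and 3 higher on that day. The lower ones were BNC1, BNC2, LRRN4, UPK3B and WT1, and the higher ones ITLN1, SEMA3D and TCF21. The list thus moved in both directions. WT1 was lower on 5 of 5 days. BNC1, a mesothelial zinc finger protein, was lower on days 6 to 12, with 107 CPM in IND and 245 CPM in CTRL on day 8 (log2 -1.19, adjusted p = 0.0439). LRRN4 had 47.3 and 92.7 CPM on day 8 (log2 -0.96, adjusted p = 0.0264), and KRT19 was lower on day 14 only (288 against 422 CPM, adjusted p = 0.0359).

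The limb bud list, with the partners of TBX4 and TBX5, held FGF10 and SALL4 among the higher genes on day 8, and MSX1, MSX2 and PITX1 among the lower ones. FGF10 is a target of TBX4 and TBX5 in the limb, and PITX1 acts upstream of TBX4 in the hindlimb. SALL4 had 153 CPM in IND and 98.7 CPM in CTRL on day 8 (log2 0.65, adjusted p = 0.0129). MSX1 was lower on days 6, 8, 12 and 14, and on day 10 without IND replicate 2, with 55.3 against 132 CPM on day 6 (log2 -1.23, adjusted p = 1.33e-05). On day 14 the count was 6 lower and 1 higher of 13, with a median of -0.51. PRRX1 was lower on day 12 (31.1 against 79.6 CPM, adjusted p = 0.0136).

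BMP signalling feeds TBX2 and TBX3 in many tissues. The protocol gave BMP7 in 1 early step before induction, with dorsomorphin in the medium before and after that step. Of 11 BMP response genes 6 were lower and 0 higher on day 6, 5 lower and 2 higher on day 8, 0 called on day 10 (5 lower and 2 higher without IND replicate 2), 2 lower on day 12, and 4 lower and 1 higher on day 14. ID3 had 171 CPM in IND and 241 CPM in CTRL on day 6 (adjusted p = 0.0176), and BAMBI, a decoy receptor, was lower on day 6 (log2 -0.56) and higher on day 8 (log2 0.33). Among 9 WNT response genes LEF1 was lower on days 6, 8, 12 and 14, and on day 10 without IND replicate 2, with 103 against 197 CPM on day 8 (log2 -0.92, adjusted p = 0.00365).

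Genes known to be repressed by TBX2 or TBX3 moved in both directions. On day 6 NDRG1 was higher and CDKN2B lower among 9 tested, with a median of -0.30, and the same 2 genes were called on day 8, with a median of 0.06. CDKN2B was lower on 5 of 5 days. CDKN1C and GJA1 passed on no day.

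Of 14 primitive streak and mesendoderm genes 0 were called on day 6 and 0 on day 10 among 12 tested, and LHX1 and NODAL were lower on day 8. Without IND replicate 2 of day 10, LHX1 and WNT3 were lower on that day among 13. GATA6 and SOX17 passed on no day, and CDX2 was higher on day 12 (57.5 against 21.9 CPM, adjusted p = 0.0396). Of 17 paraxial mesoderm and somite genes, 1 was higher (MEOX2) and 5 lower on day 14, among them PAX3 (18.3 against 40.5 CPM, log2 -1.14, adjusted p = 0.00279). In the pharyngeal list, which goes with TBX1, the higher genes were FGF10 and ISL1 on day 8 and FGF10 and MSC on day 14.

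Of the other 7 T-box genes, 3 to 5 could be tested on a day. TBXT, the Brachyury gene of the primitive streak, was at 2.15 to 6.08 CPM on day 4 and at no more than 0.518 CPM in any later library, and it was lower than on day 4 on 5 of 5 days in both CTRL and IND. MGA was the most abundant of them, at 32.8 to 71.2 CPM, and did not pass between IND and CTRL on any day. TBX22 was higher in IND on day 8 (0.463 against 0.118 CPM, log2 1.92, adjusted p = 0.0464), and on day 10 without IND replicate 2. TBR1 and TBX21 had at most 5 counts in a library, and TBX10 and TBX19 did not pass between IND and CTRL.

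The genes most like each member were named by the correlation of the 11 group means of log2 CPM, over 12712 protein-coding genes, as a description of these groups. For TBX18 they were ROBO2 (0.990), KIAA1755 (0.986) and MICAL2 (0.982), and for TBX5 KIAA1755 (0.985), ROBO2 (0.984) and PLXNA4 (0.982). TBX4 was most like ABCA2 (0.990), KANK1 (0.985) and TAPBP (0.981), and TBX2 most like GGT5 (0.987), NCAM2 (0.970) and DLK1 (0.966). For TBX20 the list was WDTC1, EPB41L4A and PCDHB11, with 0.953 to 0.981. TBX3, TBX6 and TBX1 had their closest genes at 0.944 (PTPRS), 0.950 (CERS2) and 0.949 (CEBPA). Without IND replicate 2 of day 10, the ranks changed. PLXNA4 then came first for TBX5 and KIAA1755 was at rank 5, KANK1 and TAPBP were at ranks 6 and 7 for TBX4, MICAL2 at rank 4 for TBX18, and ROBO2, ABCA2 and GGT5 stayed first for TBX18, TBX4 and TBX2. The points share the libraries, the scaling and the day 4 group, which lies far from the others for TBX18, TBX5, TBX2 and TBX20.

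Among the members themselves, TBX5 and TBX18 were alike over the 11 group means (0.973), and TBX2 and TBX6 were opposed (-0.961). TBX4 had 0.518 with TBX18, 0.431 with TBX5 and 0.389 with its neighbour TBX2. TBX3 had 0.464 with its neighbour TBX5.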

How the data were processed

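Poly-A RNA was sequenced from 33 libraries in 11 groups, taken from the labels. Per the labels and the study's methods, reads were trimmed with fastp 0.23.2, aligned to GRCh38 with HISAT2 2.0.5 and counted per gene with featureCounts 1.5.0-p3, without strand. The authors deposited raw counts, used for all tests, and FPKM, used to compare levels between genes. The members and gene lists were chosen with earlier results of these data known. Displayed CPM used TMM factors over all 33 libraries, and a gene with 3 or fewer counts in a library was taken as undetected there. IND was compared with CTRL, and each with day 4, by the quasi-likelihood test of edgeR 4.0.16 (R 4.3.3) on the 6 libraries concerned, after filterByExpr with a minimum count of 10, with Benjamini-Hochberg adjustment over all genes tested and a threshold of 0.05. All adjusted p-values are from this two-sided test unless another is named. The change with day was an F test of 4 interaction terms over 30 libraries. The scripts were tested on simulated data. Named list genes are the 3 with the highest mean level, and further genes of a list were named after their values were seen. Alternatives were DESeq2 1.42.0, RLE factors, PPIG library sizes, no filter, limma 3.58.1 on log2(FPKM + 1), a replicate block, 1 fit over 33 libraries and leaving out each library. List counts of day 10 without IND replicate 2 were added after seeing the data. Some genes of the lists are not reported here.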

Additional observations from a re-analysis of the deposited data

Results flagged for a closer look

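The difference between IND and CTRL in TBX4 varied among the days by the interaction test of edgeR over 30 libraries, with an adjusted p of 0.0448. The log2 difference was 1.58 on day 6, 3.01 on day 8, 2.23 on day 10, 1.38 on day 12 and 1.03 on day 14, with the 3 IND libraries above the 3 CTRL libraries on each day. The result lies close to the threshold, and it was lost with library sizes set by PPIG (adjusted p = 0.0862), with the replicate block (0.0504) and without most single libraries.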

How the results depend on the processing

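Replicate numbers did not pair the samples, since the 15 pairs of IND and CTRL with the same day and number had correlations of their deviations from -0.107 to 0.0781. With the replicate number as a block, 18 calls between IND and CTRL were made in place of 17, with 1 on day 10 and 0 for the interaction. Over all genes the block passed 15 of 19858 on day 10, where the main fit passed 404. PPIG library sizes gave 10 calls in all, 1 on day 6, 0 on day 10, 1 on day 12 and 0 for the interaction. Over all genes they passed 99 of 19133, 58 of 19858 and 272 of 19924 on these days. The main fits passed 700, 404 and 1080. Without a filter there were 7 calls on day 8, 8 for CTRL against day 4 on day 8 and 5 for the interaction. Over all genes 3799 of 35505 and 7299 of 34174 then passed in these 2 day 8 comparisons. The main fits passed 2754 of 19433 and 6946 of 18741. DESeq2 gave 7 on day 8, 4 on day 10 and 2 for the interaction, and limma gave 2 for the interaction. Over all genes DESeq2 passed 3432 of 19433 on day 8 and 1847 of 19858 on day 10, where the main fits passed 2754 and 404. A single fit over 33 libraries gave 5 on day 10, 1 on day 14 and 8 for IND against day 4 on day 10. Of 22613 genes it passed 3329, 862 and 10222 in these comparisons, where the main fits passed 404, 1606 and 4001. Leaving out 1 library gave 4 to 7 calls on day 8, 1 to 6 on day 10, 2 to 6 on day 12 and 0 to 2 for the interaction. Counts over all genes are not given here for these fits or for the interaction under other settings.

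PPIG sizes turned TBX2 (IND against CTRL, day 10, 0.36), TBX6 (day 12, 0.13), TBX3 in IND against day 4 (0.32, 0.60 and 0.13 on days 8, 10 and 12) and TBX15 in IND against day 4 (0.022 and 0.28 on days 10 and 14). Leaving out 1 library also turned uncalled values, whose ranges for IND against CTRL were -0.14 to 0.51 for TBX20 on day 6, -0.098 to 0.59, -0.15 to 0.069 and -0.27 to 0.17 for TBX6 on days 6, 12 and 14, -0.32 to 0.16 for TBX1 on day 6 and -0.39 to 0.059 for TBX2 on day 10. For CTRL against day 4 they were -0.000155 to 0.18 for TBX3 and -0.35 to 0.55 for TBX15 on day 6, and -0.32 to 1.26 for TBX1 and -0.29 to 0.35 for TBX15 on day 10. Of the called values, 512 kept direction and call under other settings, 26 lost the call and 1 turned, and 420 kept and 42 lost it without 1 library. The cause was not tested. TBX4 on day 6, TBX15, TBX1 and EOMES are limited by low counts.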
